A study of Mus musculus with 6 samples.

Results

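The genes described here encode the subunits of the oxidative phosphorylation machinery. They were taken by symbol, as protein-coding genes named Ndufa, Ndufb, Ndufc, Ndufs or Ndufv with a number (complex I), Sdha to Sdhd (complex II), Uqcr or Cyc1 (complex III), Cox4i or Cox5 to Cox8 (complex IV) and Atp5 (complex V), together with the subunit genes of the mitochondrial genome. The rule gave 98 of the 56262 genes in the count table, of which 85 are nuclear and 13 are mitochondrial. The nuclear genes comprise 36 of complex I, 4 of complex II, 9 of complex III, 18 of complex IV and 18 of complex V. The mitochondrial genes comprise 7 of complex I, 1 of complex III, 3 of complex IV and 2 of complex V.

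Complexes I to IV form the respiratory chain of the inner mitochondrial membrane, which passes electrons from NADH and succinate to oxygen and pumps protons, and complex V is the ATP synthase that uses the proton gradient. All of these complexes except complex II are built from products of both genomes, so their assembly needs subunits made in the cytosol and in the mitochondrial matrix. Several subunits of complex IV exist as paralogous isoforms with their own tissue distribution, and the isoform encoded by Cox4i2 is known as a lung isoform of subunit IV.

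RNA-seq was performed on whole lungs of 3 R/R mice and 3 WT littermates. The R/R mice were homozygous for the RBM47 K329R;K332R double knock-in on a C57BL/6 background, which replaces the lysines of the RNA-binding protein RBM47 that accept the ubiquitin-like protein ISG15. The WT mice carried neither substitution. Both groups were 8 weeks old and untreated, and every cell of an R/R mouse carries the alleles. In bulk lung RNA, fewer cells of a type and less RNA per cell cannot be told apart.

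The libraries held from 16501092 to 18141067 pairs of reads assigned to genes. Expression is given as CPM, the count of a gene relative to the library total scaled by TMM, and fold changes and their standard errors (SE) came from the quasi-likelihood test of edgeR over the 17120 genes with enough counts. Genes with a p under 0.05 after Benjamini-Hochberg adjustment are referred to as called, which held for 300 of these genes, or 1.75%. Rbm47 itself, whose level does not show the alleles, was at 32.7, 33.5 and 34.1 CPM in R/R lungs and at 28.8, 30.5 and 34.4 CPM in WT lungs. The difference in Rbm47 was 0.10 on the log2 scale (SE 0.08, adjusted p = 0.66). Defining genes of lung epithelium were high in all 6 lungs, with Sftpc between 10010 and 13790 CPM and Ager between 1545 and 1766 CPM.

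Of the 98 subunit genes, 94 were tested. Cox7b2 and Cox8c, the testis isoforms of subunits VIIb and VIII, had at most 1 count in a lung, a second identifier that carries the symbol Atp5o had 0 counts, and mt-Atp8 had between 2 and 7 counts per lung. One of the 94 genes was called. This was mt-Nd3, which was lower in R/R lungs, in a table in which 1.1% of all genes were called lower and 0.648% were called higher. No nuclear subunit gene was called by edgeR, where 17 of 82 had an unadjusted p under 0.05 beside 14.2% of all genes. Of these 17, 16 were higher in R/R lungs, beside 6.54% of all genes, and 1 was lower, beside 7.68%.

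Sequences are shown first for mt-Nd3, the only subunit gene called, and for its nearest nuclear copy. mt-Nd3 encodes a core membrane subunit of complex I. It lies on the plus strand of the mitochondrial genome, chrM:9459-9806 of GRCm38, and a pseudogene of it, Gm28438, is annotated on the minus strand of chromosome 1 at chr1:24612775-24613119. The GENCODE M21 transcripts were identical at 344 of the 345 bases compared, and the base that differs is T3C, with positions numbered along the mt-Nd3 transcript from 1 at its first base, which is position 9461 of the mitochondrial genome. The first 60 bases of each transcript are written 5′ to 3′ with that base in capitals.
mt-Nd3: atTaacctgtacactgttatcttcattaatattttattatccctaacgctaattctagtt
Gm28438: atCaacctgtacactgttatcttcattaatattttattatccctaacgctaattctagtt

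mt-Nd3 received 49, 34 and 34 read pairs in the R/R lungs and 147, 145 and 112 in the WT lungs. Gm28438 received 158, 179 and 143 read pairs in R/R lungs and 45, 51 and 29 in WT lungs. The 2 genes were thus ordered in opposite ways, and neither showed any overlap between the genotypes. On the log2 scale mt-Nd3 fell by 1.79 in R/R lungs (SE 0.20, adjusted p = 0.00193 in edgeR's quasi-likelihood test). The copy rose by 1.94 (SE 0.21) with the same adjusted p of 0.00193. Exact two-sided permutation of the 6 lungs gave p = 0.1 for each of them, the smallest value that 3 against 3 lungs allow.

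The copy held 76.3%, 84% and 80.8% of the pair's counts in R/R replicates 1, 2 and 3, with exact 95% binomial intervals from 69.9% to 88.7% in all. In WT replicates 1, 2 and 3 it held 23.4%, 26% and 20.6%, with intervals from 14.2% to 32.8%. Intervals cover counting error only. The share on the copy thus separated the 6 lungs by genotype by far more than counting error. When the counts of the pair were added, the R/R lungs had 207, 213 and 177 read pairs and the WT lungs 192, 196 and 141. These sums overlapped between the genotypes and differed by 0.17 on the log2 scale (SE 0.15, adjusted p = 0.67 in edgeR), so that no member was called with the copies added. Pairs that map to both places were left uncounted, so the sums do not hold them. Whether the reads of the 2 genotypes differ at T3C was not tested.

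**Figure D1:**
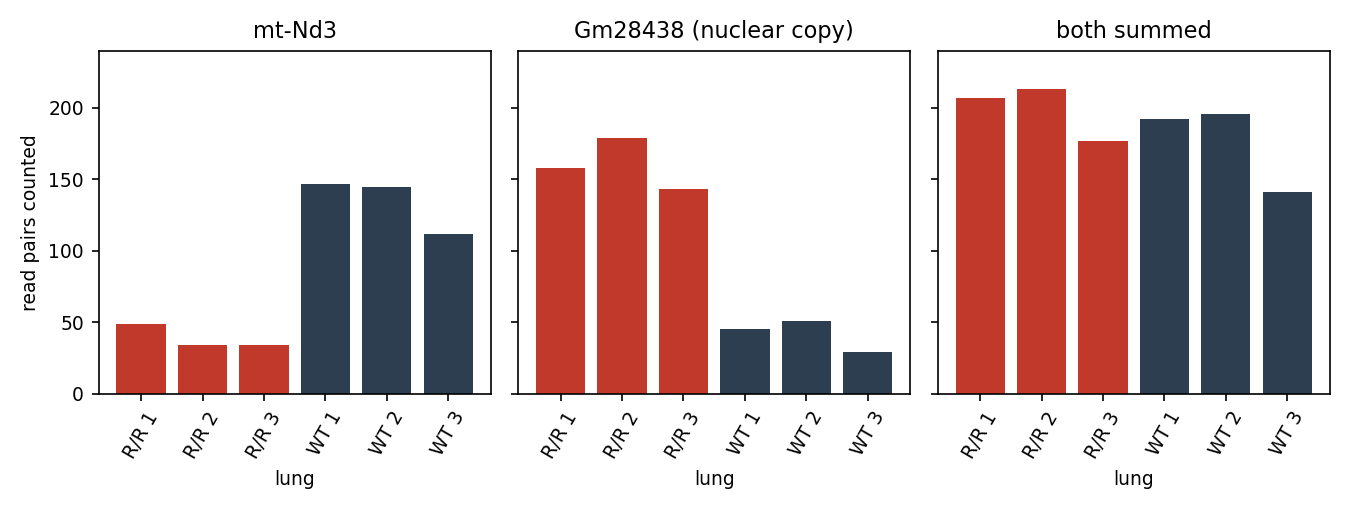
Read pairs counted on mt-Nd3, on its nuclear copy Gm28438 and on both together (y axis, counts) in each of the 3 R/R lungs (red) and 3 WT lungs (dark blue). mt-Nd3 holds at most 49 pairs in R/R lungs and at least 112 in WT lungs, the copy holds the reverse order, and the sums of 141 to 213 overlap.

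The other mitochondrial subunit genes fell into groups of high and low level per gene length. Lengths in the table are those of all annotated exons, and levels per length are given as RPKM, averaged over both genotypes. mt-Co1, the catalytic subunit of complex IV, was at 3307 RPKM and mt-Cytb, the only mitochondrial subunit of complex III, at 2161 RPKM. The complex I subunits mt-Nd1, mt-Nd2, mt-Nd4, mt-Nd5 and mt-Nd6 were at 1413, 1120, 902, 849 and 790 RPKM. All 6 other genes were under 100 RPKM, a limit chosen after the values were seen. These were mt-Co2 (59 RPKM) and mt-Co3 (28.4 RPKM) of complex IV, mt-Atp6 (44.7 RPKM) and mt-Atp8 (1.38 RPKM) of complex V, and mt-Nd4l (24.1 RPKM) and mt-Nd3 (14.5 RPKM) of complex I.

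Of these 6 low genes, 5 have an annotated copy on chromosome 1 that covers them almost whole, from 99% of mt-Nd4l to 99.9% of mt-Co3. The copies lie side by side on the minus strand, within a stretch from position 24611535 to 24616197 that also holds parts of mt-Nd4 and mt-Co1. No base differed between copy and gene over the 681 bases compared for mt-Co2, 678 for mt-Atp6, 783 for mt-Co3, 294 for mt-Nd4l and 876 of mt-Nd4. A read pair with more than 1 mapping place was left uncounted, so the low levels of these genes cannot be compared with those of the other mitochondrial genes. Adding the counts of a copy does not bring such pairs back, so sums of gene and copy cover only pairs with 1 mapping place. The copies of these 5 genes had between 29 counts (Gm28438, the copy of mt-Nd3, in WT 3) and 599 counts (Gm10925, the copy of mt-Atp6, in WT 1 and WT 2). For mt-Nd4 and mt-Co1, whose copies reach 63.6% and 31.3% of their length, the copies added at most 331 counts to at least 18176.

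**Figure D2:**
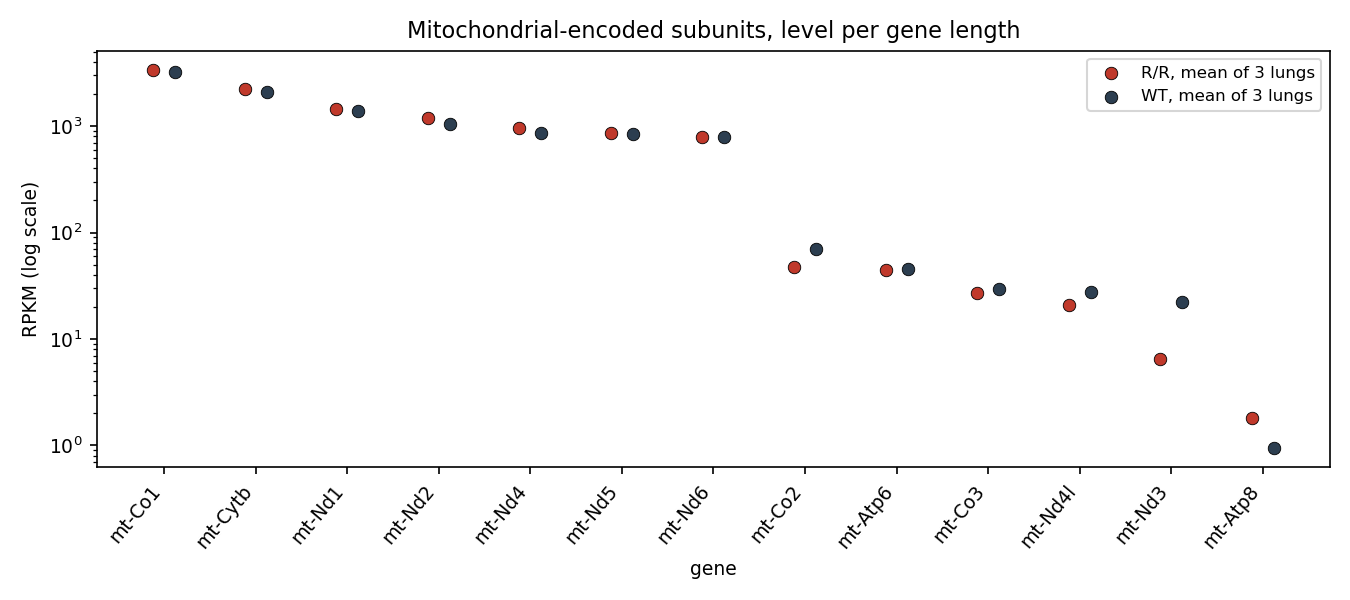
Level per gene length (RPKM, log scale) of the 13 mitochondrial-encoded subunit genes, as the mean of 3 R/R lungs (red) and of 3 WT lungs (dark blue). The 7 genes on the left lie between 790 and 3307 RPKM, and the 6 on the right, of which 5 have a nearly full copy on chromosome 1, lie at 59 RPKM or under.

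The 7 well-counted mitochondrial genes all had positive fold changes, between 0.03 for mt-Nd6 and 0.18 for mt-Nd2, and none was called. mt-Nd2, a membrane subunit of complex I, was at 1156, 1271 and 1280 CPM in R/R lungs and at 1082, 1070 and 1115 CPM in WT lungs, without overlap (log2 fold change 0.18, SE 0.07, adjusted p = 0.23 in edgeR). mt-Cytb was at 2496, 2655 and 2562 CPM in R/R lungs and at 2282, 2377 and 2458 CPM in WT lungs, again without overlap (0.12, SE 0.07, adjusted p = 0.51). mt-Nd1 and mt-Nd4 were also without overlap, with log2 fold changes of 0.08 and 0.15. Of the 12 tested mitochondrial genes 50% had no overlap in either direction, beside 18.7% of all genes. Of these, 4 were higher in R/R lungs. The 2 that were lower, mt-Nd3 and mt-Nd4l, overlapped once the counts of their copies were added. mt-Co1 was at 5191, 5487 and 5020 CPM in R/R lungs and at 4868, 5063 and 5027 CPM in WT lungs. For mt-Co1 the lowest R/R lung lay below 2 of the WT lungs, so the genotypes overlapped. mt-Nd5 differed by 0.05 and also overlapped.

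Among the low genes, mt-Co2 was at 34.6, 32.9 and 30.5 CPM in R/R lungs and at 68.3, 43.8 and 32.3 CPM in WT lungs. One WT lung stood high and the other 2 lay nearer to the R/R lungs, and the log2 fold change was -0.56 (SE 0.20, adjusted p = 0.22 in edgeR). mt-Nd4l, a small membrane subunit of complex I, was at 5.83, 6.64 and 6.01 CPM against 8.44, 8.00 and 8.08 CPM, which did not overlap (-0.41, SE 0.14, adjusted p = 0.19). With the counts of its copy added, mt-Nd4l overlapped between the genotypes and differed by -0.14 (adjusted p = 0.65). mt-Co3 and mt-Atp6 had log2 fold changes of -0.14 and -0.02 and overlapped. With the counts of their copies added, mt-Co2, mt-Co3 and mt-Atp6 differed by -0.46, -0.11 and -0.16 and overlapped. Their adjusted p values were then 0.16, 0.80 and 0.51 in edgeR. These sums also leave out the pairs that map to both places.

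Together the mitochondrial genes held 13580, 14360 and 13520 CPM in R/R lungs and 12700, 13050 and 13200 CPM in WT lungs. All of the R/R lungs were above all of the WT lungs, by a ratio of means of 1.06. The median log2 fold change of the 12 tested mitochondrial genes was 0.04 and that of the 7 well-counted ones was 0.08, beside 0.0045 over all genes. The median of the 12 moved to 0.0079 without R/R replicate 2 and to 0.07 without R/R replicate 3. The mitochondrial ribosomal RNAs, mt-Rnr1 and mt-Rnr2, differed by 0.06 and -0.13 and overlapped between the genotypes.

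The nuclear subunit genes had small differences that leaned to one side. Of 82 tested, 73 had a positive log2 fold change, or 89%, beside 51.2% of all genes. Their median log2 fold change was 0.11, which is 7.65% higher in R/R lungs, beside 0.0045 over all genes, and 75 of them lay within 0.2 of 0. The median SE of a single gene was 0.08. Between the genotypes 21 nuclear subunit genes did not overlap with R/R higher, beside 9.17% of all genes, and 1 did not overlap with R/R lower, beside 9.5%.

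**Figure D3:**
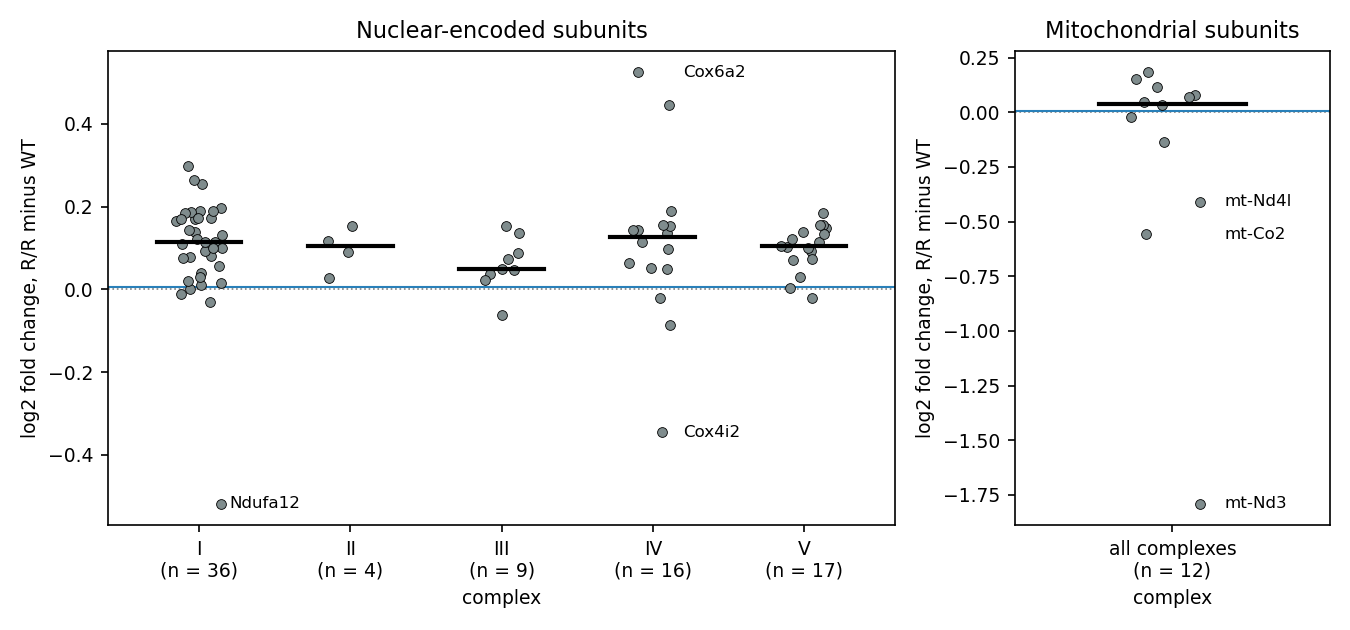
Log2 fold change of R/R against WT lungs (y axis) for each tested subunit gene (points), with nuclear genes by complex on the left and the 12 mitochondrial genes on the right, on different scales. Black bars are medians and the blue line is the median of all 17120 genes at 0.0045. Nuclear medians run from 0.05 for complex III to 0.13 for complex IV, and mt-Nd3 lies far below the rest.

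Complex I, the NADH dehydrogenase, had 36 tested nuclear genes, of which 32 were above 0 with a median of 0.11. All 12 of its genes without overlap were higher in R/R lungs, or 33.3% of the complex, beside 9.17% of all genes. Ndufb4, an accessory subunit, was at 29.8, 31.3 and 27.5 CPM in R/R lungs and at 23.1, 24.0 and 26.6 CPM in WT lungs. The lowest R/R lung was only just above the highest WT lung, and the log2 fold change was 0.26 (SE 0.09, adjusted p = 0.18 in edgeR, the lowest among the nuclear genes with a positive fold change). Ndufa5, another accessory subunit, was at 24.6, 24.2 and 23.6 CPM against 19.0, 22.3 and 19.4 CPM. The R/R lungs were close together and above each WT lung (0.25, SE 0.09, adjusted p = 0.21).

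Ndufa10, an accessory subunit of the matrix side, was at 45.6, 43.5 and 42.8 CPM in R/R lungs and at 37.8, 36.5 and 40.8 CPM in WT lungs, without overlap (log2 fold change 0.20, SE 0.07, adjusted p = 0.22 in edgeR). Ndufb6, also accessory, was at 17.3, 18.4 and 14.8 CPM against 13, 13.1 and 14.9 CPM. For Ndufb6 the third R/R lung fell within the WT range (0.30, SE 0.11, adjusted p = 0.24), and 39% of its exon bases overlap a gene on the opposite strand, which counting without strand cannot separate. Ndufa12 had the most negative nuclear value of complex I and was low in all lungs, at 6.66, 4.19 and 7.07 CPM in R/R and 5.59, 10.04 and 10.01 CPM in WT. One WT lung lay within the R/R range (-0.52, SE 0.24, adjusted p = 0.37). Per gene length the tested nuclear genes of complex I ran from Ndufb2 at 1.87 RPKM to Ndufa2 at 71.6 RPKM. The core subunit Ndufs1 differed by -0.03, and Ndufs7, which carries an iron-sulfur cluster, by 0.17 without overlap.

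Complex II, succinate dehydrogenase, has no mitochondrial-encoded subunit, and all 4 of its genes were above 0 with a median of 0.10. Sdha, its flavoprotein, was at 208, 211 and 200 CPM in R/R lungs and at 190, 187 and 194 CPM in WT lungs. Every R/R lung was above every WT lung, with a log2 fold change of 0.12 (SE 0.05, adjusted p = 0.37 in edgeR). Sdhb, the iron-sulfur subunit, also did not overlap (0.15, SE 0.07, adjusted p = 0.33). Sdha and Sdhb made up 50% of these 4 genes, beside 9.17% of all genes without overlap and with R/R higher. The membrane anchors Sdhc and Sdhd differed by 0.09 and 0.03 and overlapped. Sdha had the highest level per length of complex II at 48.1 RPKM and Sdhc the lowest at 22 RPKM.

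Complex III, the cytochrome bc1 complex, had 8 of 9 nuclear genes above 0 and the lowest median of the nuclear groups, 0.05. Of its tested nuclear genes 11.1% had no overlap, with R/R higher, beside 9.17% of all genes. The only such gene was Uqcr10, a small subunit with the highest level per length of the complex at 72.2 RPKM. It was at 44.2, 44.7 and 43.5 CPM in R/R lungs and at 36.9, 41.7 and 41.9 CPM in WT lungs (log2 fold change 0.14, SE 0.07, adjusted p = 0.43 in edgeR). Uqcrfs1, the Rieske iron-sulfur protein, had the only negative value, -0.06. Uqcrq was lowest per length, at 24.8 RPKM.

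Complex IV, cytochrome c oxidase, had 13 of 16 tested nuclear genes above 0, with a median of 0.13 and a wide range. Its single gene without overlap on the lower side was Cox4i2, and Cox5a, Cox5b, Cox6b1 and Cox6c did not overlap with R/R higher. In either direction these made up 31.2% of its tested nuclear genes, beside 18.7% of all genes. Cox6c was at 83.8, 84.1 and 77.8 CPM in R/R lungs and at 71.0, 73.7 and 76.1 CPM in WT lungs. This small regulatory subunit differed by 0.15 (SE 0.06, adjusted p = 0.27 in edgeR). Cox6a1 had the highest level per length of all nuclear subunits, 212 RPKM, and Cox7a1 the lowest of complex IV, 2.46 RPKM. Ndufa4, now known as a subunit of complex IV although its symbol places it with complex I, did not overlap either, with a log2 fold change of 0.17.

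Cox4i2 was the nuclear subunit gene with the lowest adjusted p. It lies on chromosome 2 at 152754173 to 152765037 of GRCm38, and none of its exon bases is shared with another annotated gene. It was at 42.9, 48.1 and 43.2 CPM in R/R lungs and at 59.0, 60.6 and 50.9 CPM in WT lungs. All of the R/R lungs were below all of the WT lungs, with a log2 fold change of -0.35 (SE 0.08), or 0.79 times the WT level. Its adjusted p of 0.0588 missed the threshold, and exact permutation gave p = 0.1. Over the alternatives the adjusted p of Cox4i2 ranged from 0.00173 to 0.208, so that the call depended on the method and on the libraries used. DESeq2 (adjusted p = 0.0177) and the exact test of edgeR (0.0117) called it. The quasi-likelihood test of edgeR also called it with the replicate number as a block (adjusted p = 0.0326), without a filter on low counts (0.00173) and without WT replicate 3 (0.0126).

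Cox4i1, the common isoform of the same subunit, showed no such order of the lungs. It was at 157, 166 and 146 CPM in R/R lungs and at 137, 144 and 157 CPM in WT lungs, with overlap (log2 fold change 0.10, SE 0.07, adjusted p = 0.58 in edgeR). Per gene length, the level of Cox4i2 was 0.54, 0.57 and 0.58 of that of Cox4i1 in R/R lungs and 0.85, 0.83 and 0.64 in WT lungs. These ratios did not overlap between the genotypes, although WT 3 lay near the R/R lungs.

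Genes of pericytes, the mural cells of small vessels, moved in the same direction as Cox4i2. All 11 genes of a pericyte list that was written after values had been seen had negative fold changes (median -0.27), and Pdgfrb and Gucy1a1 were called lower in edgeR, with adjusted p = 0.0269 and 0.0462. The summed pericyte genes were at 1580, 1663 and 1488 CPM in R/R lungs and at 2040, 1985 and 1807 CPM in WT lungs, a ratio of 0.81. Relative to this sum, Cox4i2 was at 2.72%, 2.89% and 2.91% in R/R lungs and at 2.89%, 3.05% and 2.82% in WT lungs, which overlapped. This overlap is no test, since the list was written after values had been seen and all its genes were lower in R/R lungs. The part of pericytes in the difference of Cox4i2 was not tested. Ndufa4l2, a paralogue of Ndufa4 that the symbol rule leaves out, was at 38.2, 42.0 and 32.5 CPM in R/R lungs and at 45.6, 41.1 and 43.6 CPM in WT lungs, with overlap (-0.21, SE 0.09, adjusted p = 0.33).

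**Figure D4:**
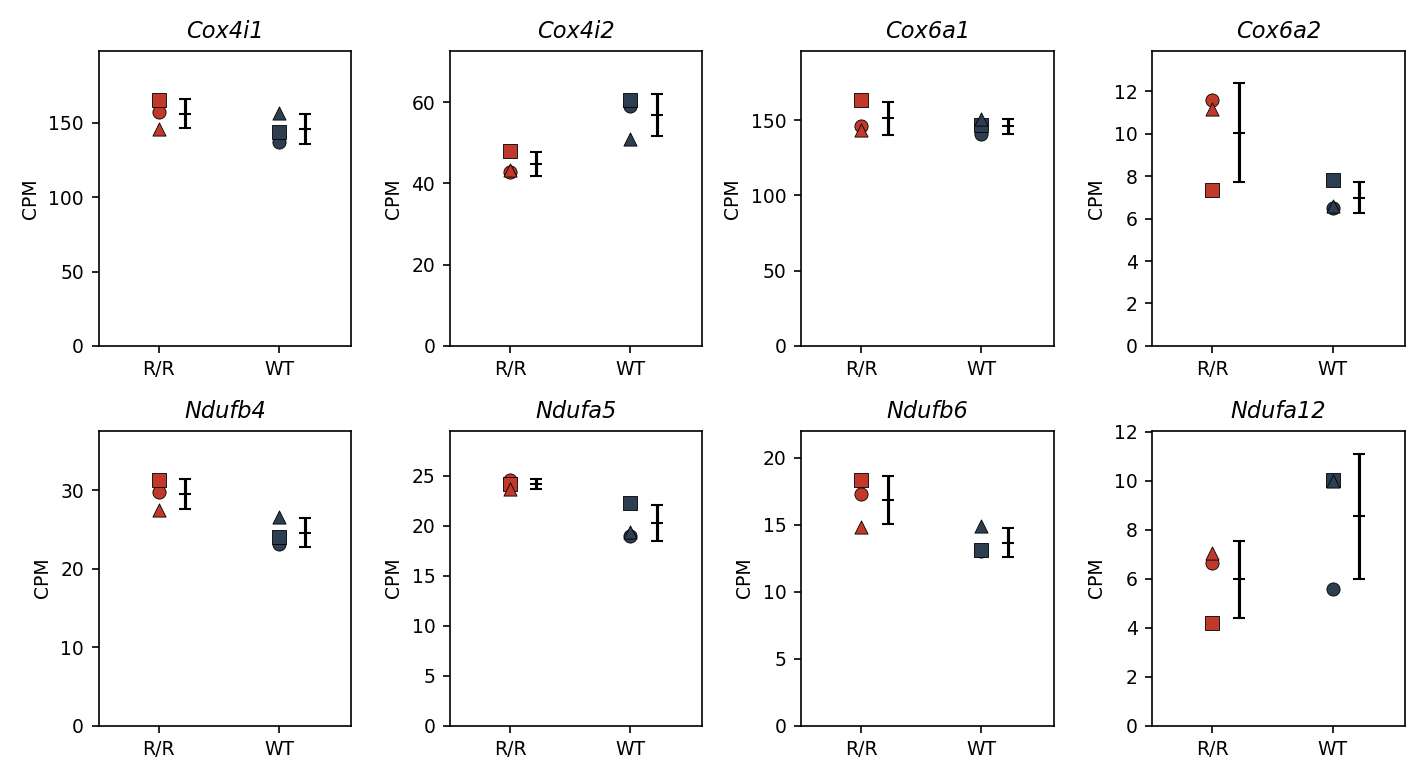
CPM of 8 nuclear subunit genes in each lung (points; circle, square and triangle are replicates 1, 2 and 3 of R/R in red and of WT in dark blue), with the mean and SD of each genotype beside them. Cox4i2 is at 42.9 to 48.1 CPM in R/R lungs and at 50.9 to 60.6 CPM in WT lungs, whereas its paralogue Cox4i1 overlaps.

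The striated muscle isoforms of complex IV were low in these lungs. Cox6a2, the heart and skeletal muscle isoform of subunit VIa, had the largest positive log2 fold change of the nuclear subunits, 0.52 (SE 0.18, adjusted p = 0.20 in edgeR), and was at 11.6, 7.35 and 11.2 CPM in R/R lungs against 6.50, 7.84 and 6.62 CPM in WT lungs. R/R 2 fell within the WT range, and 10.3% of its exon bases overlap a gene on the opposite strand. Its ubiquitous paralogue Cox6a1 differed by 0.05 with overlap. Cox7a1 and Cox8b, further muscle isoforms, had CPM between 0.527 and 1.72 in all 6 lungs and fold changes of 0.19 and 0.45 with SEs of 0.36 and 0.39.

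Cardiac muscle genes, which are found in the walls of pulmonary veins in mice, had 0 of 11 tested genes above 0, and summed to 70.9, 108 and 139 CPM in R/R lungs and to 188, 293 and 96.6 CPM in WT lungs. WT 3 held the least among the WT lungs, as it did of Cox7a1 and Cox8b, and Cox6a2 was lowest in WT 1. In the R/R lungs the cardiac sum rose from replicate 1 to 3. Cox7a1 was at 1.665, 1.255 and 1.296 CPM there and Cox8b at 1.72, 1.614 and 1.001 CPM. The tested cardiac genes had negative fold changes, and Cox7a1 and Cox8b had positive ones. These 2 isoforms rested on 9 to 31 counts per lung, so their order among the lungs is uncertain. The part of cardiac muscle in the fold changes of the muscle isoforms was not tested. Cox6b1 and its paralogue Cox6b2 differed by 0.14 and -0.09, Cox7a2 and Cox7b by 0.05 and 0.06, and Cox8a, the ubiquitous isoform of subunit VIII, by 0.16. None of them was called.

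Complex V, the ATP synthase, had 16 of 17 tested genes above 0 with a median of 0.10. Atp5a1 and Atp5b, the alpha and beta subunits of its catalytic head, were the highest in CPM, and Atp5a1 was highest per length at 132 RPKM. Atp5a1 was at 434, 427 and 411 CPM in R/R lungs and at 394, 402 and 415 CPM in WT lungs. One R/R lung was below the highest WT lung, with a log2 fold change of 0.07 (SE 0.06, adjusted p = 0.65 in edgeR). Atp5b differed by 0.0028. Only Atp5d and Atp5c1, the delta and gamma subunits, were without overlap, both with R/R higher. They made up 11.8% of the tested genes of the complex, beside 9.17% of all genes.

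Atp5g1, Atp5g2 and Atp5g3 encode the same mature c subunit of the membrane ring and differ in their targeting peptides. Their log2 fold changes were 0.14, 0.16 and 0.03, with adjusted p = 0.50, 0.37 and 0.86 in edgeR, and all 3 overlapped. Per length Atp5g3 (39.7 RPKM) and Atp5g2 (37.4 RPKM) were near each other and Atp5g1 was at 5.96 RPKM. The level of Atp5g2 is uncertain, since the annotated transcript of Gm10175 on chromosome 7 matched it at all of 645 aligned bases. Atp5s, placed with complex V by the symbol rule only, was the lowest of this group per length at 3.76 RPKM and differed by 0.12.

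The lean of the nuclear genes was carried unevenly by the lungs. The median deviation of the 82 genes from their mean over 6 lungs, in log2 CPM, was 0.07, 0.09 and -0.01 in R/R 1, R/R 2 and R/R 3 and was -0.11, -0.03 and -0.0035 in WT 1, WT 2 and WT 3. R/R 3 thus lay below WT 3, and the genotypes overlapped. WT 1 was the lowest of the 6 lungs for 47 of the 82 genes, while R/R 2 and R/R 1 were the highest for 34 and 31. Summed over all nuclear subunits, the R/R lungs had 4980, 4990 and 4707 CPM and the WT lungs 4471, 4642 and 4754 CPM, which also overlapped, with a ratio of means of 1.06. Of the 5 complexes, only the summed genes of complex II had no overlap, at 395, 396 and 385 CPM in R/R lungs and 362, 359 and 373 CPM in WT lungs.

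**Figure D5:**
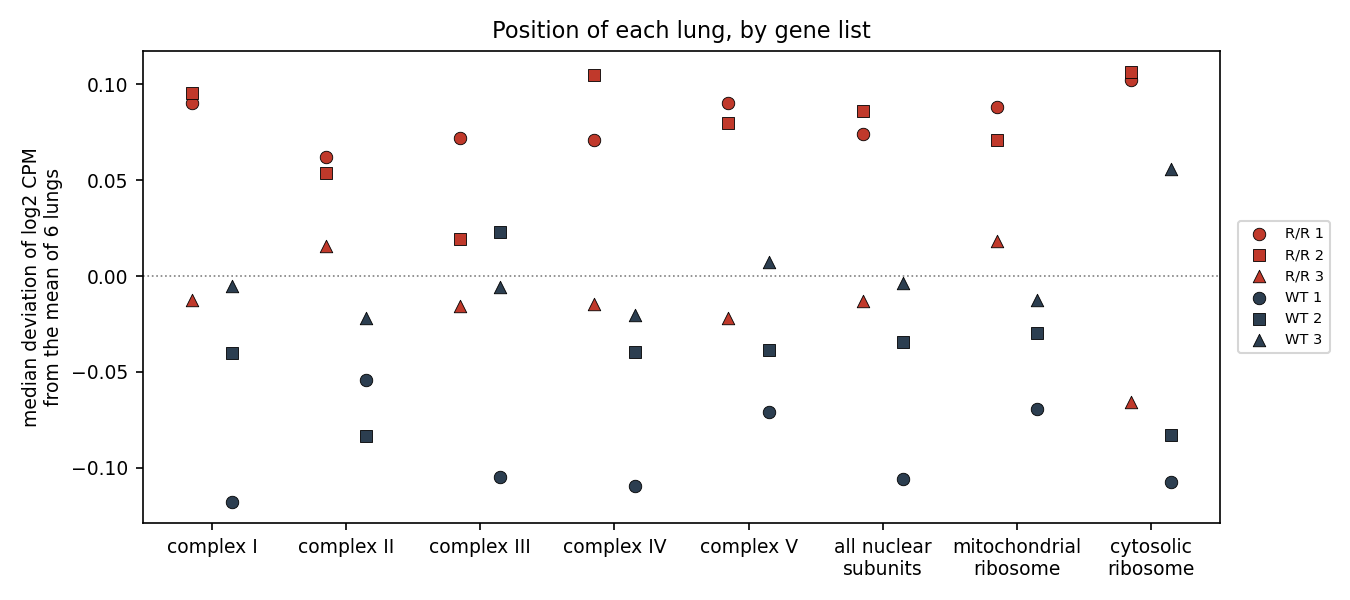
Median deviation of log2 CPM from the mean of all 6 lungs (y axis) in each lung, for nuclear subunits by complex and together, and for the mitochondrial and cytosolic ribosomes. R/R 1 and R/R 2 lie above 0 in every list and WT 1 lies below, whereas for all nuclear subunits R/R 3 at -0.01 and WT 3 at -0.0035 lie side by side.

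Other lists of abundant or mitochondrial genes leaned the same way. Of the proteins of the mitochondrial ribosome, which translate the mitochondrial subunits, 66 of 77 tested genes were above 0 with a median of 0.08 and none was called. Of those of the cytosolic ribosome, 71 of 79 were above 0 with a median of 0.09, and only Rpl17 was called, at 61.2, 57.5 and 52.5 CPM in R/R lungs and 104, 108 and 116 CPM in WT lungs (lower, adjusted p = 0.000183 in edgeR). In each lung both lists sat on the same side of 0 as the nuclear subunits, except that R/R 3 was above 0 for the mitochondrial ribosome and WT 3 was above 0 for the cytosolic one. The sums over the mitochondrial ribosome did not overlap, at 1576, 1568 and 1528 CPM against 1439, 1476 and 1496 CPM, whereas those over the cytosolic ribosome did.

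Of the tricarboxylic acid cycle enzymes, which feed electrons to complexes I and II, 13 of 14 were above 0 with a median of 0.06. Assembly factors were nearer to the background, with 12 of 18 above 0 and a median of 0.03 for complex I and 21 of 31 and 0.04 for complexes II to V. Electron carriers and other inner membrane genes had 19 of 27 above 0 (median 0.04), the maintenance genes of mitochondrial DNA and RNA had 17 of 30 (median 0.01), and the regulators of mitochondrial biogenesis had 7 of 13 (median 0.0086). No gene of these lists was called by edgeR. An unadjusted p under 0.05 was reached by 9 genes of the mitochondrial ribosome (11.7%), all higher in R/R lungs, by 12 of the cytosolic ribosome (15.2%), 10 higher and 2 lower, and by 14.2% of all genes tested. It was reached by 0 genes of the lists of assembly, carriers, maintenance and regulators. It was also reached by 1 enzyme of the cycle, the succinyl-CoA ligase subunit Suclg2, named after its values were seen (log2 fold change 0.25, adjusted p = 0.165 by edgeR). Of the subunits and paralogues outside the symbol rule, 4 of 6 tested were above 0 with a median of 0.08, and this list shares Cox7a2l with complex IV. Nnt, the proton-translocating transhydrogenase, had between 10 and 20 counts per lung in both genotypes.

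Gene length moved with the fold change over the tested protein-coding genes. Among protein-coding genes with up to 1000 exon bases, 63% were above 0 with a median of 0.06, and among those over 8000 bases 44.6% were above 0 with a median of -0.01. Within the shortest bin the 21 nuclear subunit genes had a median of 0.13, and within 1000 to 2000 bases the 31 subunit genes had 0.11 beside 0.05 for all protein-coding genes. In the bins of 2000 to 4000 and of 4000 to 8000 bases the subunit medians were 0.10 and 0.12, beside 0.03 and -0.0018. The part of length in the lean was not tested.

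Marker genes of several cell types also differed between the genotypes. All 9 alveolar type 2 genes were above 0 (median 0.16) and summed to between 25250 and 26650 CPM in R/R lungs and between 19910 and 24840 CPM in WT lungs. Alveolar macrophage genes had 6 of 8 above 0 (median 0.32, Chil3 called, adjusted p = 0.0233 in edgeR), and summed to between 881 and 997 CPM in R/R lungs and between 613 and 789 CPM in WT lungs. Lymphocyte genes had 0 of 7 above 0 (median -0.67), Ms4a1 and Cd79a among those called lower, and erythroid genes had 0 of 6 (median -0.72), with Hba-a1 called lower. Endothelial genes had 1 of 7 above 0 (median -0.11). Alveolar type 1 genes had 4 of 7 above 0 (median 0.0045), with Aqp5 called higher. Airway genes had 4 of 7 above 0 (median 0.0086), fibroblast and smooth muscle genes 2 of 7 (median -0.05), skeletal muscle genes 1 of 5 (median -0.18), thymus genes 0 of 2 and adipose genes 1 of 1. The part of cell composition in the fold changes of the subunits was not tested.

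Promoters of nuclear subunits were examined for the motifs of nuclear respiratory factor 1 and of the ETS factors that include GABP, both known as activators of respiratory genes. Of 84 nuclear symbols, 66 were found in the RefSeq promoter table (GRCm38.p6), with windows from 250 bases before to 50 bases after the start. The motif of the first, the half-site GCGCA followed directly by its reverse complement, was in the windows of 5 of these 66 genes (7.58%), in those of 3 of 69 genes of the mitochondrial ribosome (4.35%) and in 1.07% of the 27025 symbols of the table. On either strand the ETS core CCGGAAG was in 16 of the 66 (24.2%), beside 9.93% of all, and in 26 of the 69 (37.7%). These matches describe the letters of the windows only. The symbols of the whole promoter table were not limited to genes tested in these lungs. The stretches of 30 bases with the first motif in capitals are given 5′ to 3′ on the strand of each gene, to show what these subunits of complexes I, III, IV and V share.
Atp5k, chr5:108434430-108434459, minus strand: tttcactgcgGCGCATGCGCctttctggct
Cox6a1, chr5:115349101-115349130, minus strand: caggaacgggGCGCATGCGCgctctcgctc
Uqcrc1, chr9:108936668-108936697, plus strand: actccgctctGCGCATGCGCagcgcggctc
Atp5g2, chr15:102671070-102671099, minus strand: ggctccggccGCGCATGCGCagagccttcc
Ndufa11, chr17:56717692-56717721, plus strand: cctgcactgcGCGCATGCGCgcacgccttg
The motif began 50 bases before the start of Atp5k, 162 before that of Cox6a1, 42 before that of Atp5g2 and 60 before that of Ndufa11, and 30 bases after that of Uqcrc1. The log2 fold changes of these genes were 0.13, 0.05, 0.16, 0.11 and 0.09 in the same order, and none was called.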

How the data were processed

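Lung RNA-seq libraries of 3 R/R and 3 WT mice were compared. The authors aligned paired-end reads of 150 bp with HISAT2 2.1.0 (mm10, GRCm38). They deposited unnormalized counts, made by featureCounts 2.0.1 with GENCODE M25, in 6 columns that all hold whole read pairs. Their command used no strand and no pairs with several mapping places. DESeq2 is named in the submitters' processing notes and edgeR in the supplement. The supplement names Trizol for extraction and the labels name RNeasy columns.

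Gene symbols, biotypes and coordinates came from GENCODE M21 of the same assembly, in which 55227 of the 56262 identifiers were found. 8 symbol matches that are not protein-coding were left out. The test across genes was that of edgeR 4.0.16 in R 4.3.3 (filterByExpr with minimum count 10 and minimum total 15, TMM, glmQLFit, glmQLFTest, Benjamini-Hochberg adjustment over 17120 genes, threshold 0.05). SE was taken as the fold change over the square root of F. Single genes were permuted exactly, two-sided, on log2 CPM with a prior count of 0.5. Copies were found with blastn 2.17.0 (90% identity over at least 100 bases, and for nuclear genes over 80% of the transcript). The fits were tested on simulated data. In the shallowest library 1 count is 0.0607 CPM. The libraries of a genotype differed by more than sampling noise, with chi-square per degree of freedom between 5.64 and 9.02.

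Named genes are the called subunits, the 5 largest positive and 5 largest negative fold changes at a mean log2 CPM of at least 1, the mitochondrial genes, isoform sets, the highest and lowest RPKM of each complex and called genes of the other lists. A few others were named after their values were seen. Members and lists were chosen with earlier results of these data known. As alternatives the fit was repeated with limma-voom (limma 3.58.1), the exact test of edgeR and DESeq2 1.42.0, and with other scalings, filters and thresholds, a replicate block, other gene tables and each library left out in turn. Motifs were counted in RefSeq promoters of GRCm38.p6. Single values of a few genes that enter the counts and medians are not reported here.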

Additional observations from a re-analysis of the deposited data

How the results depend on the processing

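mt-Nd3 was called lower, and Gm28438 higher, in every alternative that kept them as separate genes, and with each of the 6 libraries left out mt-Nd3 ranged from -1.95 to -1.69. Their sum was also fitted with DESeq2, without TMM, with the replicate block and with each library left out in turn, and was not called in any of these. The other alternatives were not run on the sum. The number of subunit genes called lower was 2 instead of 1 with DESeq2, with edgeR's exact test and at an adjusted p of 0.1, was 3 without a filter on low counts, and was 0 with the mitochondrial genes left out or the copies summed, which removes or replaces mt-Nd3. With one library left out it ranged from 1 to 3 (3 without WT replicate 3, where mt-Co2 and Cox4i2 were added). 1 subunit gene, Cox6a2, was called higher without a filter. Of all genes, 541 were called with DESeq2, 630 with the exact test, 1109 without a filter, 548 at an adjusted p of 0.1, and from 65 (without WT replicate 1) to 621 (without WT replicate 3) with one library left out. The cause was not tested.

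The median of the nuclear genes stayed above 0 in all alternatives run, and was 0.08 to 0.14, with 79.3% to 92.7% of the genes above 0, with one library left out. The median of the mitochondrial genes was 0.0801 without those under 100 RPKM, an alternative chosen after seeing the data, and ranged from 0.0079 to 0.07 with one library left out. Of the subunit genes named, those uncalled that changed sign with one library left out were mt-Atp6 (-0.147 to 0.049), mt-Nd6 (-0.0098 to 0.0548), mt-Co3 (-0.329 to 0.0326), Cox6a1 (-0.0097 to 0.0848), Uqcrq (-0.0096 to 0.0537), Sdhd (-0.008 to 0.0768), Atp5b (-0.0243 to 0.0279, and -0.0036 with protein-coding genes alone), Cox7a2 (-0.0132 to 0.143) and Cox7a1 (-0.119 to 0.509).

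With the replicate number as a block, 2 subunit genes were called lower, mt-Nd3 and Cox4i2 (adjusted p = 0.0326 in edgeR), and 446 genes in all. The labels do not say what the numbers mark, and same-numbered lungs did not deviate together (correlations of -0.014, -0.004 and -0.015), so the numbers were not taken to pair the lungs. With 3 lungs a genotype, the median SE of a nuclear subunit was 0.08, close in size to the median difference of 0.11. The smallest difference that could be called for a single gene was not computed. Among genes of other lists, the calls of Pdgfrb, Gucy1a1, Chil3 and Aqp5 were lost with 5 of the 6 libraries left out in turn and those of Cd79a and Hba-a1 with 4. mt-Nd3 and its copy rested on 29 to 179 counts per lung, and mt-Atp8 was too low to test.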
